A study of Rattus norvegicus and Mus musculus with 12 samples.

Results

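Acute phase proteins are the plasma and tissue proteins whose synthesis rises or falls during inflammation. The genes described here were Saa1, Saa2, Saa3, Lcn2, Orm1, Hp, Cp, A2m, Serpina3n and Ptx3, taken by gene symbol from the expression tables of a study of rat and mouse chondrocytes. The list holds 10 genes. All 10 were found among the 28603 genes of the mouse table, and 6 of them (Lcn2, Orm1, Hp, Cp, A2m and Ptx3) among the 19687 genes of the rat table. Saa1, Saa2, Saa3 and Serpina3n were analysed in mouse alone.

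The cells were primary chondrocytes from the joint cartilage of newborn SD (Sprague-Dawley) rats and C57BL/6 mice, used at first passage. The rat control (RC) and mouse control (MC) groups were untreated, and the rat model (RM) and mouse model (MM) groups received 20 ng/ml IL-1β for 24 h, a cytokine treatment used as a cell model of osteoarthritis. Each group had 3 RNA-seq libraries, 12 in all, which the study describes as independent samples. No genetic change was made in any group. The strain labels of the mouse libraries carry different numbers after C57BL, and the study's methods name C57BL/6 alone. The species of origin of the IL-1β is not stated in the sources used here.

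The classical source of acute phase proteins is the hepatocyte, and many of the genes are also active in epithelia, macrophages and connective tissue cells. IL-1 acts on the so-called type 1 genes (such as serum amyloid A and α1-acid glycoprotein) through NF-κB and C/EBP factors, while IL-6 acts on type 2 genes through STAT3. In cartilage, lipocalin 2 has been studied as a product of inflamed chondrocytes.

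Total counts were 21114361 to 24897458 per library in RC, 20169272 to 25903459 in RM, 16841580 to 17957308 in MC and 17482589 to 20048322 in MM. The chondrocyte markers were present and fell in both species. All 14 of 14 markers were called lower in the IL-1β groups, against 16.8% of all genes tested in rat and 37.7% in mouse. The summed FPKM (read fragments scaled to transcript length and library size) of these markers was 5849 to 6526 in RC, 2390 to 2422 in RM, 2605 to 2660 in MC and 251 to 265 in MM. Hepatocyte markers stayed at a summed FPKM of 0.709 to 0.904 in RC, 1.08 to 1.34 in RM, 0.638 to 3.20 in MC and 0.266 to 0.697 in MM, and Hnf4a, a liver transcription factor, had no read in any mouse library. These are bulk RNA measurements, in which fewer cells of a type and less RNA per cell cannot be told apart.

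IL-1β raised several acute phase protein genes in the chondrocytes of both species, and each species is counted here on its own. In mouse, 9 of the 10 genes had counts high enough to be tested (the exception was Orm1), and all 9 were higher in MM at an adjusted P under 0.05 (edgeR quasi-likelihood test with Benjamini-Hochberg adjustment over all genes tested). The background is large, because 37.4% of all 14774 genes tested in mouse were higher and 37.7% lower. That split rests on the scaling between libraries: 5521 genes were higher and 5564 lower with TMM factors, against 3697 and 8077 with library size alone. In rat, all 6 genes were tested, and 3 (Lcn2, Orm1 and Cp) were higher, 1 (Ptx3) was lower and 2 (Hp and A2m) did not pass the test. There the background was 18.3% higher and 16.8% lower among 13303 genes tested. Saa1, Saa2 and Saa3 in mouse and Orm1 in rat reached the count minimum through their IL-1β libraries alone, so among tested genes these 4 could only be higher. Of the genes whose 3 control libraries also reached it, 6 of 6 were higher in mouse, and in rat 2 of 5 were higher, 1 lower and 2 not called.

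The first RC library stood apart from the other rat controls. The chi-square per degree of freedom between libraries was 27.8 and 16.0 for the pairs that hold it, 12.4 for the other RC pair and 6.07 to 6.60 for the RM pairs. Without it, 6251 genes were called in rat instead of 4667, and the 6 acute phase genes again gave 3 higher, 1 lower and 2 not called. For the mouse pairs the same measure was 1.90 to 2.48. Mouse replicates thus varied less, and smaller changes could be called there. Numbers of genes called are therefore not set against each other between species.

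**Figure D1:**
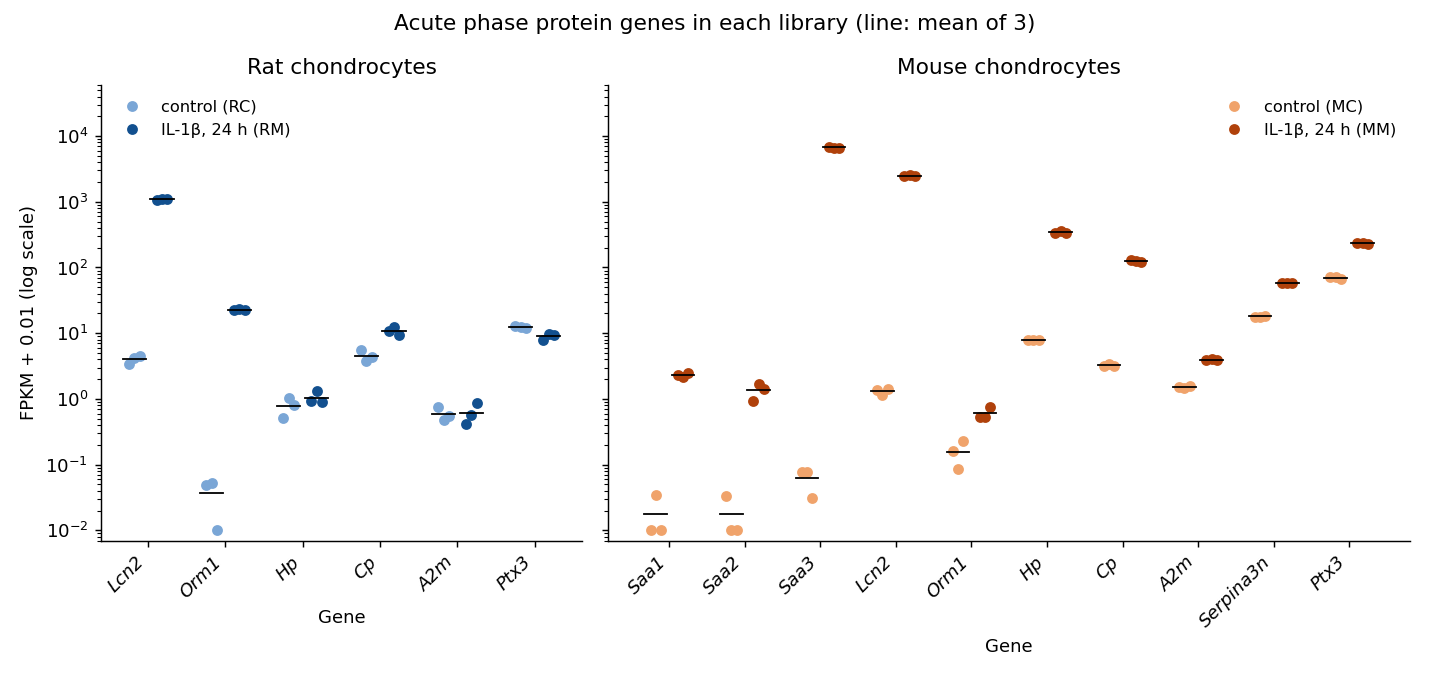
FPKM plus 0.01 on a log scale for each acute phase protein gene in each library of rat (left) and mouse (right), with control libraries in the lighter colour, IL-1β libraries in the darker colour and a line at the mean of 3. In mouse every gene's IL-1β points lie above its control points, from 0.515 to 0.738 FPKM for Orm1 up to 6591 to 6883 for Saa3, while in rat the points of Hp and A2m overlap between groups and those of Ptx3 are lower with IL-1β. Of all genes tested in mouse, 37.4% were called higher, so a rise is not particular to these genes.

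As a share of all counted reads, the genes together took 0.00485% ± 0.000383 (SD, n = 3) in RC and 0.105% ± 0.00262 in RM. In mouse the share was 0.0283% ± 0.000527 in MC and 2.65% ± 0.0419 in MM. The rat figure covers the 6 genes of its table and the mouse figure all 10, so the shares of the 2 species are not set against each other. The gene holding most of these reads changed with IL-1β in both species. Ptx3 held 49.9% ± 3.01 of the reads on these genes in RC and 66.4% ± 0.982 in MC. In RM, Lcn2 held 91.8% ± 0.544, and in MM, Saa3 held 65.9% ± 0.644 and Lcn2 24.5% ± 0.582.

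**Figure D2:**
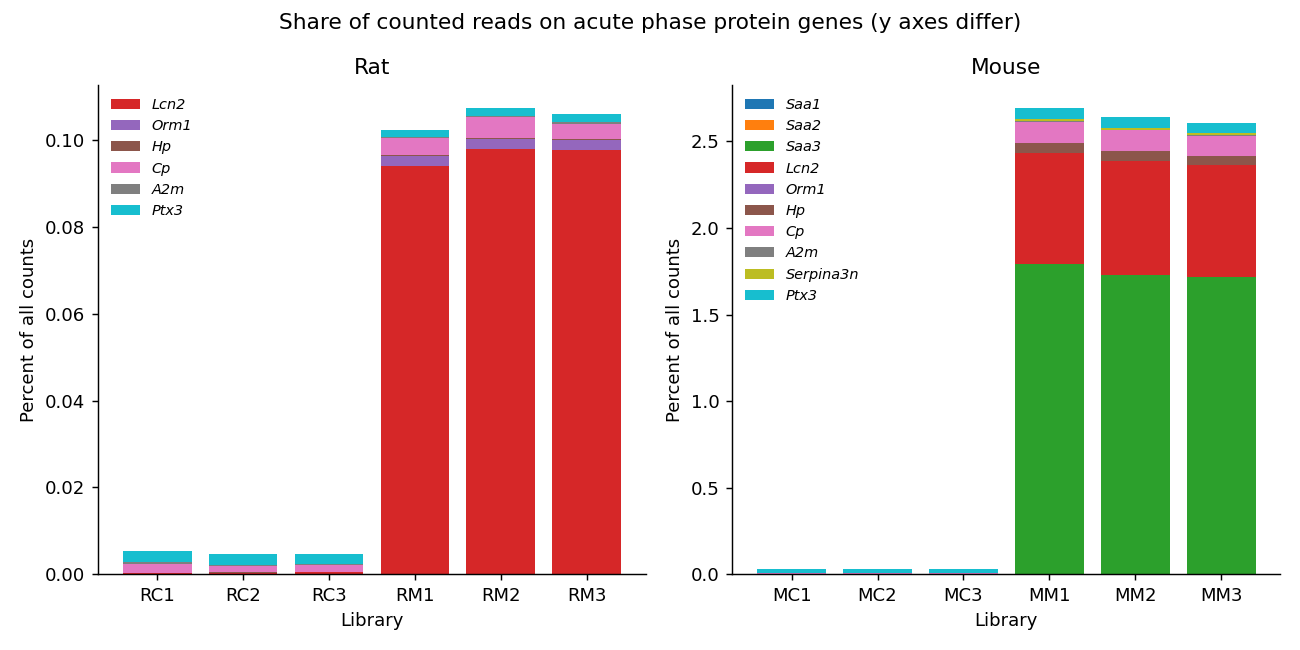
Percent of all counts of each library that fell on acute phase protein genes, stacked by gene, for the 6 rat libraries (left) and the 6 mouse libraries (right), with separate y axes that both start at 0. The IL-1β libraries reach 0.102% to 0.107% in rat, nearly all of it Lcn2, and 2.61% to 2.69% in mouse, where Saa3 and Lcn2 make up most of the bar.

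The serum amyloid A genes encode small apolipoproteins that ride on high-density lipoprotein during inflammation. Saa1 and Saa2 are the forms made in the acute phase liver, and Saa3 is the form made by macrophages, fat and other tissues outside the liver. The 3 genes lie close together on mouse chromosome 7 (GRCm38, GENCODE M21): Saa3 at chr7:46711998-46715700 on the minus strand, Saa1 at chr7:46740497-46742980 on the minus strand and Saa2 at chr7:46751790-46754313 on the plus strand. Their likeness decides how well reads tell them apart, so the first 120 coding bases of the GENCODE transcripts are shown 5′ to 3′, with capitals in Saa2 and Saa3 at the bases that differ from Saa1.
Saa1: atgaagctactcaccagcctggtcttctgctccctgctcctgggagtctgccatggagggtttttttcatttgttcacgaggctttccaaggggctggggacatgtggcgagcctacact
Saa2: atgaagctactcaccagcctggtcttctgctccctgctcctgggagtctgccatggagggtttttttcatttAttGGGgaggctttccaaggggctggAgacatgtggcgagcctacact
Saa3: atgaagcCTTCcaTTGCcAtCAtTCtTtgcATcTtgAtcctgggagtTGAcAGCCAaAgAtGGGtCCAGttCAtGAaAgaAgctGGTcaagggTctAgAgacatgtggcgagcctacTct
Saa2 differs from Saa1 at 5 of these bases and Saa3 at 48. Over the whole coding sequence of 366 bases, Saa1 was 95.1% identical to Saa2 and 73.0% identical to Saa3. Of the 560 stretches of 50 bases in the Saa1 transcript, 74 also occurred in Saa2 and 9 in Saa3, and none of the Saa2 stretches occurred in Saa3.

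Saa3 showed the largest change among the genes of the list. It had 7 counts over the 3 MC libraries and 997796 over the 3 MM libraries. Its FPKM was 6883, 6630 and 6591 in the MM libraries and 0.0523 ± 0.0268 on average in MC, so the groups lie far apart and the MM libraries close together. By mean FPKM, Saa3 ranked 3 among all genes of the mouse table in MM and 20028 in MC. The log2 fold change was 17.18 ± 0.0580 (SE, adjusted P = 3.14e-92), and the ratio of summed counts, scaled to the TMM-adjusted library sizes, was 157268, with an exact 95% counting interval of 76329 to 391165. That interval covers counting error only, like the other counting intervals given here, and its width comes from the 7 control counts. The SE of 0.0580 is far narrower than that interval and does not measure the precision of the change. DESeq2 gave a log2 fold change of 17.27 ± 0.546 (SE), and leaving out any 1 library gave 16.81 to 17.41.

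Saa1 and Saa2 rose as well, at far lower levels. Saa1 had 1 count in MC and 326 in MM, a ratio of 359.7 (counting interval 64.1 to 14249.6, adjusted P = 5.87e-25), and its mean FPKM in MM was 2.31 ± 0.166. Saa2 had 1 count in MC and 192 in MM, a ratio of 211.8 (37.6 to 8410.08, adjusted P = 1.22e-18), with a mean FPKM of 1.34 ± 0.381. Each of these single control counts lies in 1 library, and the fitted log2 fold change moved with it, from 8.02 to 9.83 for Saa1 without the second MC library and from 7.25 to 9.07 for Saa2 without the first. For every 100 counts on Saa3 in MM there were 0.0327 on Saa1 and 0.0192 on Saa2. Saa1 and Saa2 share the stretches of 50 bases counted above, so the division of reads between them is uncertain. The part of Saa3 reads in the Saa1 count was not tested.

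Lcn2 encodes lipocalin 2, which binds the iron-carrying siderophores of bacteria and can form a complex with MMP-9. It was the most strongly expressed of the 6 genes in RM and the second in MM, behind Saa3. In rat, its FPKM was 3.34, 4.17 and 4.53 in RC and 1059, 1102 and 1101 in RM. That is a log2 fold change of 8.07 ± 0.109 (SE, adjusted P = 1.50e-11), or 269-fold, and it moved Lcn2 from rank 8935 to rank 40 by mean FPKM. In mouse, at chr2:32384633-32388252 on the minus strand, its FPKM was 1.36, 1.13 and 1.42 in MC and 2444, 2512 and 2454 in MM. The log2 fold change was 11.16 ± 0.0447 (adjusted P = 3.00e-88), or 2288-fold, and the rank moved from 11181 to 7. DESeq2 gave that mouse change a larger SE of 0.111. The groups were far apart in both species, with replicates of 1 group within a few percent of each other after IL-1β.

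Orm1 encodes α1-acid glycoprotein, a plasma lipocalin that binds drugs and steroids and that IL-1 and glucocorticoids induce in liver. It was close to silent in control chondrocytes of both species. In rat, 1, 1 and 0 counts were found in RC and 457, 615 and 555 in RM, with FPKM of 22.2, 23.3 and 22.7 in the RM libraries. The summed counts of 2 and 1627 give a ratio of 795.6 after the same scaling (exact counting interval 219.9 to 6575.07), and the gene was called higher (adjusted P = 2.38e-09). In mouse, at chr4:63344560-63348163, Orm1 had 6 counts in MC and 26 in MM, a ratio of 4.78 (1.92 to 14.2), and was removed by the filter on low counts. Fitted without that filter, the mouse gene had a log2 fold change of 2.20 ± 0.730 (adjusted P = 0.00676), and the mouse log2 fold change less the rat one was −7.16 ± 1.00 (adjusted P = 4.57e-06). Orm1 was thus the member with the larger change in rat. Mouse Orm1 belongs to a family of near copies, and sharing of reads with them was not tested.

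The RefSeq promoters of rat Lcn2, Orm1, Cp and Ptx3, the 4 rat genes that passed the test, are shown because the first 3 rose and Ptx3 fell. Each run holds the 250 bases before the annotated start on the GRCr8 build, 5′ to 3′ on the gene's strand, and the RefSeq table used here matched 4 of the 6 rat genes, leaving Hp and A2m as names only. Capitals mark matches, on either strand, to an NF-κB core (GGNNNTTCC) and a C/EBP core (TTGCNNAA). The windows are chr3:36081781-36082030 on the minus strand for Lcn2, chr5:81788259-81788508 on the plus strand for Orm1, chr2:104368420-104368669 on the plus strand for Cp and chr2:152797313-152797562 on the plus strand for Ptx3.
Lcn2: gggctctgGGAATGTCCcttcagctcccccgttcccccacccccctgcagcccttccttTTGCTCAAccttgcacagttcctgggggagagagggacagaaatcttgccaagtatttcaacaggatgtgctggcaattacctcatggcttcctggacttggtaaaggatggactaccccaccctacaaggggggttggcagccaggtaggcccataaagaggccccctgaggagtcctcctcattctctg
Orm1: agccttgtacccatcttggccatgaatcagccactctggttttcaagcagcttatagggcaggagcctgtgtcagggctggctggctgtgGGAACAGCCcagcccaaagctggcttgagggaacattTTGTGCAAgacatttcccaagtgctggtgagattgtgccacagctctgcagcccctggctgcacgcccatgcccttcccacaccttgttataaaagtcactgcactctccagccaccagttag
Cp: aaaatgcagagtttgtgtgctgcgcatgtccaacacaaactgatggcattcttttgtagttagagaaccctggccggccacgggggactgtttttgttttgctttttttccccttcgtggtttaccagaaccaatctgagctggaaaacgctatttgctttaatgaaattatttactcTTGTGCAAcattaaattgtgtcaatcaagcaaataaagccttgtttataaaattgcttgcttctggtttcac
Ptx3: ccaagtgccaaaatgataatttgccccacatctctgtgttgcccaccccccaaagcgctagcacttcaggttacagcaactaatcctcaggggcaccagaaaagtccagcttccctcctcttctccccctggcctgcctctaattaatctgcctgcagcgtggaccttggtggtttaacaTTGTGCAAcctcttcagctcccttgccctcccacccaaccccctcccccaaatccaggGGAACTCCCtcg
The C/EBP core occurred once in each of the 4 promoters, 191 bases before the start in Lcn2, 123 in Orm1, 72 in Cp and 70 in Ptx3, counted from the far end of the match. The NF-κB core occurred in 3 of them, 242 bases before the start in Lcn2, 160 in Orm1 and 12 in Ptx3, and was not found in Cp. Over all 33469 rat promoters of the same 300-base window (250 before and 50 after the start), 10.6% held the C/EBP core and 18.3% the NF-κB core. A STAT core (TTCNNNGAA) was in none of the 4 and in 8.87% of all promoters. No matches to different motifs overlapped. Ptx3 holds both cores and moved the other way from Lcn2 and Orm1, and these letter matches describe the sequence only.

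Hp encodes haptoglobin, which captures free haemoglobin, and Cp encodes ceruloplasmin, a copper-carrying ferroxidase that helps iron leave cells. Both rose strongly in mouse. Mouse Hp (chr8:109575128-109579172, minus strand) had an FPKM of 7.97, 7.99 and 7.98 in MC and 338.7, 357.5 and 340.1 in MM, a log2 fold change of 5.71 ± 0.0454 (adjusted P = 1.94e-71). In rat the gene was low throughout, with an FPKM of 0.511, 1.02 and 0.803 in RC and 0.924, 1.31 and 0.884 in RM. The rat groups overlap. The rat log2 fold change of 0.41 ± 0.329 did not pass the test (adjusted P = 0.361), and 1.96 standard errors on either side span −0.23 to 1.06, a range that includes 0 and lies below the mouse value.

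Cp passed the test in both species. Its FPKM was 5.53, 3.78 and 4.32 in RC and 10.8, 12.5 and 9.45 in RM, a log2 fold change of 1.25 ± 0.146 (adjusted P = 0.000100), or 2.38-fold. The rat replicates spread widely but the groups stayed apart. In mouse, at chr3:19957054-20009145 on the plus strand, it was 3.11, 3.36 and 3.19 in MC and 129.9, 125.6 and 121.5 in MM, a log2 fold change of 5.56 ± 0.0385 (adjusted P = 8.78e-75), or 47.3-fold. An exon of mouse Cp overlaps an exon of Hps3 on the opposite strand, and the strand setting of the counting is unknown, so reads of the overlap cannot be told apart. Hps3 had 1116 counts in MC and 690 in MM, against 1600 and 68735 for Cp.

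A2m encodes α2-macroglobulin, a broad protease trap and a classical strong acute phase protein of rat liver, and Serpina3n encodes a secreted serine protease inhibitor. In rat chondrocytes A2m was low and did not pass the test. Its FPKM was 0.754, 0.468 and 0.547 in RC and 0.404, 0.568 and 0.860 in RM, with overlapping groups and a log2 fold change of 0.04 ± 0.294 (adjusted P = 0.939), for which 1.96 standard errors on either side span −0.54 to 0.61. In mouse, at chr6:121635376-121679227 on the plus strand, A2m was 1.51, 1.48 and 1.58 in MC and 3.87, 4.03 and 3.89 in MM, without overlap. That rise was a log2 fold change of 1.65 ± 0.0850 (adjusted P = 1.53e-26), or 3.13-fold.

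Mouse Serpina3n, at chr12:104406729-104414329 on the plus strand, was already expressed in control cells. Its FPKM was 17.7, 17.7 and 18.4 in MC and 58.2, 57.1 and 58.2 in MM, a log2 fold change of 1.96 ± 0.0457 (adjusted P = 3.67e-45), or 3.90-fold. The gene lies in a family of close copies, the Serpina3 cluster, so reads shared within that family make its count uncertain.

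Ptx3 encodes the long pentraxin 3, a soluble pattern recognition molecule made locally by stromal and myeloid cells, which also takes part in hyaluronan-rich matrices. It was the most strongly expressed member in both control groups and moved in opposite directions in the species. In rat it fell from 12.9, 12.6 and 12.1 FPKM in RC to 7.91, 9.75 and 9.35 in RM, and the groups did not overlap. The rat log2 fold change was −0.49 ± 0.0981 (adjusted P = 0.00317), or 1.41-fold lower. It is smaller than the study's minimum change of 0.85 for a differentially expressed gene, if that figure is read as a log2 fold change. In mouse, at chr3:66219910-66225805 on the plus strand, Ptx3 rose from 70.9, 71.7 and 67.4 FPKM in MC to 233.6, 236.9 and 225.5 in MM, a log2 fold change of 2.01 ± 0.0315 (adjusted P = 7.61e-55), or 4.02-fold.

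The response of each gene was then compared between species in 1 fit over the 12 libraries and the 10912 genes tested in both. All 5 genes that could be compared (Lcn2, Hp, Cp, A2m and Ptx3) differed, each with the higher log2 fold change in mouse. This stands against a background in which 63.8% of all genes compared differed in either direction. The difference, given as the mouse log2 fold change minus the rat one, was 5.29 ± 0.284 (SE) for Hp (adjusted P = 5.49e-11). It was 4.32 ± 0.158 for Cp (adjusted P = 4.03e-13) and 3.09 ± 0.138 for Lcn2 (adjusted P = 4.84e-12). For Ptx3 it was 2.50 ± 0.0934 (adjusted P = 5.37e-13) and for A2m 1.60 ± 0.268 (adjusted P = 5.83e-05). The ordering of the genes by this difference is not their ordering by change in either species, since of these 5 Lcn2 changed most in both and Hp differed most between them. The study describes 1 protocol for both species, but each had its own cultures, libraries and gene models. The part of these in the differences cannot be told apart from species. The fit gives each gene 1 dispersion (spread between replicates) for both species, although the common coefficient of variation was 0.106 in rat and 0.0318 in mouse. The SE of the difference came out below the rat SE alone for Ptx3 (0.0981 in rat), A2m (0.294) and Hp (0.329). The SE and P values of every species difference given here can therefore understate the rat spread, and the 63.8% rests on the same fit.

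**Figure D3:**
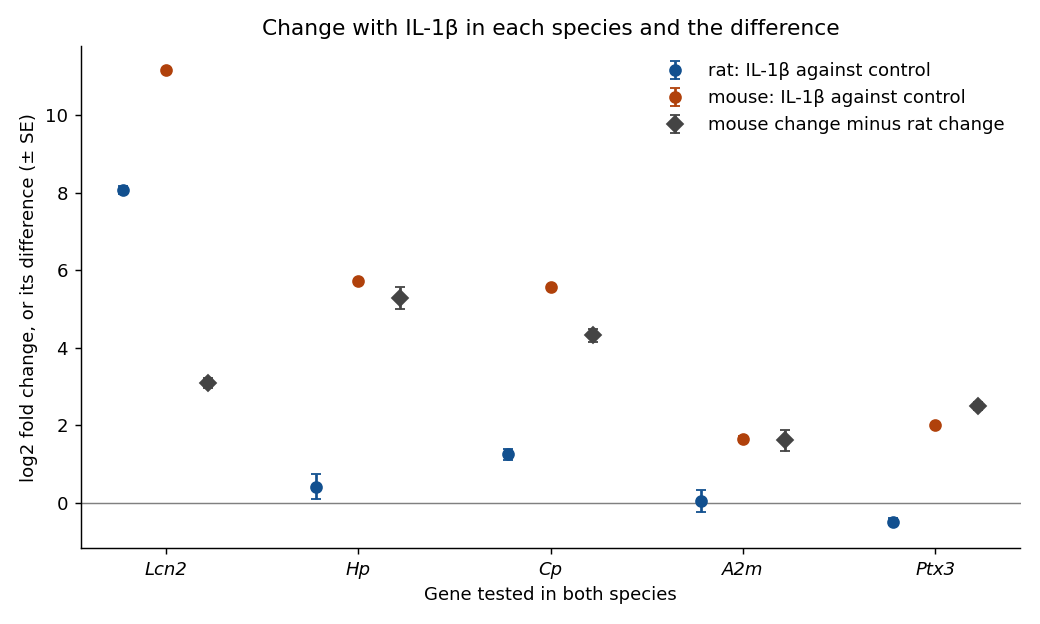
Log2 fold change with IL-1β in rat and in mouse and the mouse change minus the rat change (diamonds) for the 5 genes tested in both species, with bars of 1 SE either way. Every diamond lies above 0, from 1.60 for A2m to 5.29 for Hp, and Ptx3 is the gene with a rat value below 0 (−0.49) and a mouse value above it (2.01).

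Within each group, levels per length can be ordered by FPKM. In RC the order was Ptx3, Cp, Lcn2, Hp, A2m and Orm1, and the library ranges of Cp and Lcn2 overlapped, as did those of Hp and A2m. In RM it was Lcn2, Orm1, Cp, Ptx3, Hp and A2m, with overlap between Cp and Ptx3. In MC it was Ptx3, Serpina3n, Hp, Cp, A2m, Lcn2, Orm1, Saa3, Saa1 and Saa2, and the last 3 were not separable. In MM it was Saa3, Lcn2, Hp, Ptx3, Cp, Serpina3n, A2m, Saa1, Saa2 and Orm1, and no neighbouring pair overlapped. Lcn2 thus stood below Ptx3 in both control groups and above it in both IL-1β groups. FPKM was made separately for each table and with gene models of different length (Lcn2 was scaled to 889 bases in rat and 2623 in mouse), so levels are not compared between species.

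Other positive acute phase proteins, most of them known to rise in inflammation, were counted from a list that also holds Saa4. Of 14 tested in rat, 7 were higher, 2 lower and 5 not called. The background there was 18.3% higher and 16.8% lower, and the median log2 fold change was 1.23 against 0.01 over all genes. That median was 0.59 over 15 genes without the first RC library, and C3 and Pzp reached the count minimum through RM alone. Of 20 tested in mouse, 18 were higher and 2 lower, against a background of 37.4% higher and 37.7% lower. The median was 3.07 against −0.02 over all genes. Of these 20, 6 reached the count minimum through the MM libraries alone and 1 through the MC libraries alone, so the filter favoured the direction they took. Among the 14 whose control libraries reached it, 12 were higher and 2 lower (median 2.57), and with no filter 19 of 40 were higher, 2 lower and 19 not called (median 1.10). With library size alone as scaling, which moved the median of all mouse genes to −0.30, the mouse counts were 17 higher, 2 lower and 1 not called. C3, the central complement component, rose from a mean of 0.0800 to 45.6 FPKM in rat (log2 fold change 9.15) and from 1.43 to 160 in mouse (7.09), and the mouse value less the rat value was −2.06 ± 0.244 (adjusted P = 1.26e-06). Steap4, an iron and copper reductase, rose by a log2 fold change of 2.88 (rat) and 4.47 (mouse). In rat, Lbp (the lipopolysaccharide-binding protein, 3.14) and the metallothionein Mt2A (2.36) followed. In mouse, Mt1 (3.93) and the complement factor Cfb (5.97, on 4 control counts) did. Rat Saa4, the serum amyloid A gene not induced by inflammation in liver, had a log2 fold change of 0.04 (adjusted P = 0.793), and its FPKM was scaled to 6891 bases, against 2094 exonic bases in mouse. Mouse Saa4 had 0 counts in MC and 72 in MM and was called higher (adjusted P = 8.22e-12). It reached the count minimum through MM alone, so the filter favoured that direction.

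The listed negative acute phase proteins, for most of which liver synthesis falls in inflammation, were few in these cells. Of 8 tested in rat, 2 were higher, 1 lower and 5 not called (median log2 fold change 0.12, against 0.01 over all genes), which is near the background of 18.3% higher and 16.8% lower. Both of the higher ones, Fetub and Fgfbp1, reached the count minimum through RM alone. Of 4 tested in mouse, 3 were higher and 1 lower (median 1.02), against a background of 37.4% higher and 37.7% lower. With library size alone 2 were higher, 1 lower and 1 not called. With no filter, 15 mouse genes gave 3 higher, 2 lower and 10 not called, and the median turned to −1.18. Serpina6, the corticosteroid-binding globulin, fell by 2.17 on the log2 scale in rat, and Igf1, an anabolic growth factor of cartilage, fell by 3.45 in mouse. Rbp4, the plasma retinol carrier, rose in mouse (1.98), and Fgfbp1, which releases fibroblast growth factors from matrix, rose in rat (1.75).

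Among the regulators of the acute phase, which are the cytokines, receptors, transcription factors and feedback inhibitors of the IL-1 and IL-6 pathways, 18 of 30 tested were higher, 4 lower and 8 not called in rat (median log2 fold change 0.76, against 0.01 over all genes and a background of 18.3% higher and 16.8% lower). In mouse 22 of 32 were higher, 8 lower and 2 not called (median 1.07, against −0.02 and a background of 37.4% higher and 37.7% lower), and with library size alone 22 were higher and 10 lower. Il6, the main inducer of the hepatic acute phase, rose from a mean of 0.301 to 4.83 FPKM in rat and from 0.0476 to 244 in mouse. Its log2 fold change was 3.95 in rat and 12.51 in mouse, where it rests on 6 control counts, and the difference between species was 8.60 ± 0.726 (adjusted P = 1.93e-08). In both species Il6 reached the count minimum through the IL-1β libraries alone. The filter thus favoured the direction it took, and the P value is no separate support. Lif, another cytokine that signals through gp130, had log2 fold changes of 2.17 and 8.39, with a difference of 6.23 ± 0.238 (adjusted P = 7.06e-13). Nfkbiz, an NF-κB cofactor, had 4.13 in rat and 5.78 in mouse, and Cebpd, a C/EBP factor of the acute phase, had 2.13 and 3.75.

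Of the receptors and partners of the acute phase proteins, 7 of 19 tested in rat were higher, 2 lower and 10 not called (median log2 fold change 0.56, against 0.01 over all genes and a background of 18.3% higher and 16.8% lower). In mouse 15 of 20 were higher, 3 lower and 2 not called (median 1.13, against −0.02 and a background of 37.4% higher and 37.7% lower). Of the regulators, 1 gene (Il6) in each species, and 2 of the receptors and partners in each (Has1 and Fgf2 in rat, Mmp9 and Hephl1 in mouse), reached the count minimum through the IL-1β libraries alone. With library size alone the mouse counts were 12 higher, 4 lower and 4 not called. Tlr2, a receptor reported to bind serum amyloid A, rose by a log2 fold change of 5.04 (rat) and 2.93 (mouse), and the mouse change minus the rat change was −2.11 ± 0.101 (adjusted P = 1.26e-11). Mmp9, the protease that lipocalin 2 binds, rose by 5.19 in rat, Tnfaip6, a hyaluronan-binding partner of pentraxin 3, by 1.96, and the zinc and iron importer Slc39a14 by 1.71. In mouse the genes named by size were Heph (2.54), a ferroxidase related to ceruloplasmin, the iron transporter Slc11a2 (2.34), the hyaluronan synthase Has1 (2.29) and Tlr2. Being named in 1 species does not make a change particular to it. Mmp9 (3.83), Tnfaip6 (1.82) and Slc39a14 (2.28) were also called higher in mouse. In rat Slc11a2 was called higher (1.05), Has1 was not called and Heph was called lower (−1.63).

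**Figure D4:**
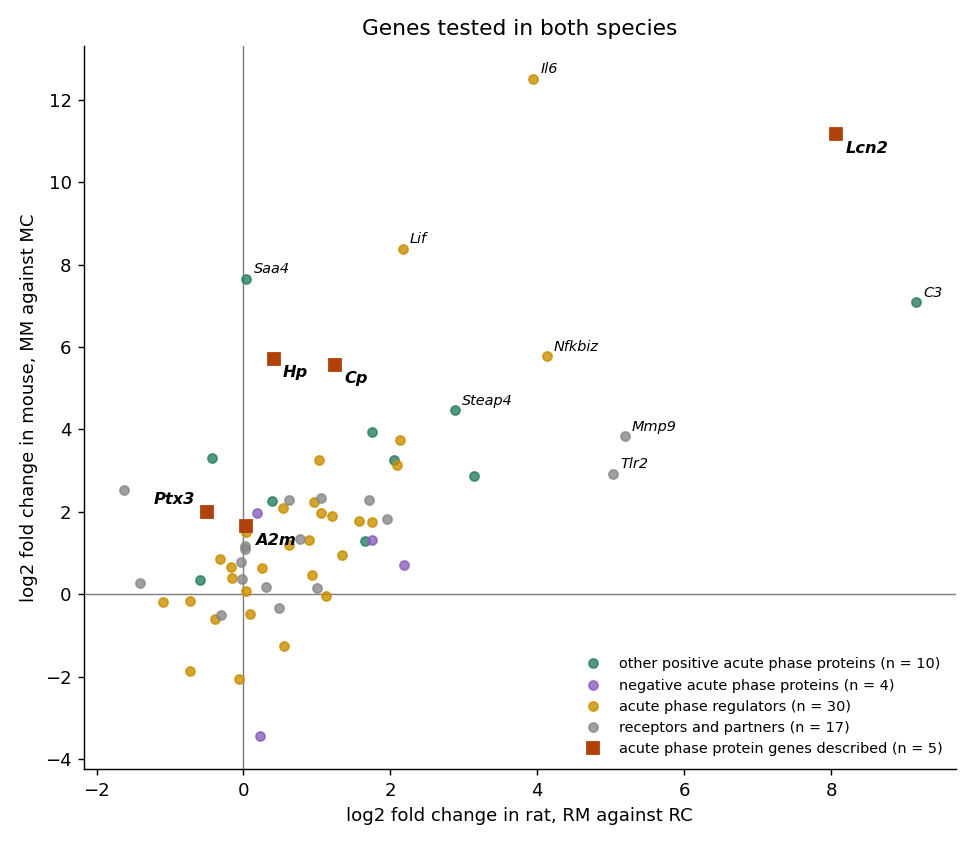
Log2 fold change in rat (x axis) against mouse (y axis) for genes tested in both species, with squares for 5 acute phase protein genes described here and circles for 10 other positive acute phase proteins, 4 negative ones, 30 regulators and 17 receptors and partners. Lcn2 lies at 8.07 and 11.16, C3 at 9.15 and 7.09, and Hp and Cp lie high on the mouse axis (5.71 and 5.56) with rat values of 0.41 and 1.25.

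Markers of other cell types were read in the same libraries. Neutrophils, which store lipocalin 2 and haptoglobin, had the largest proportional rise of these lists in mouse, with a summed FPKM of 0.163 to 1.10 in MC and 72.6 to 78.3 in MM over 7 of 11 markers in the table. That sum came from S100a8 (45.8 ± 2.01 in MM) and Camp (30.5 ± 1.31), while Mpo, Elane, Ly6g, Cxcr2 and Ltf had at most 5 counts over the 3 libraries of a group. In rat the neutrophil sum was 0 to 0.338 in RC and 0.135 to 0.348 in RM. Macrophage and leukocyte markers summed to 24.3 to 29.5 in RC, 34.3 to 39.2 in RM, 7.97 to 8.96 in MC and 34.9 to 37.6 in MM, led in the IL-1β groups by Cd14. In mouse 4 of these markers were called higher and 0 lower, against 37.4% higher and 37.7% lower of all genes tested. Cd14 rose from 1.87 ± 0.434 to 24.1 ± 0.730 FPKM, Cd68 from 3.52 ± 0.525 to 8.23 ± 0.763, Lyz2 from 1.59 ± 0.209 to 2.62 ± 0.773 and Csf1r from 0.410 ± 0.174 to 0.553 ± 0.127, whereas Ptprc, the general leukocyte marker, had 3 counts in MC and 1 in MM and Itgam had 0. In rat Cd14, Cd68 and Mrc1 were higher and Lyz2, Laptm5 and Csf1r lower, against 18.3% higher and 16.8% lower of all genes tested. Fabp4, an adipocyte and macrophage lipid carrier, rose from 5.03 ± 1.07 to 54.9 ± 12.8 FPKM in rat. Fibroblast markers summed to 1937 to 2118 in RC, 1965 to 2021 in RM, 605 to 612 in MC and 929 to 941 in MM. In rat 2 markers were called higher and 3 lower (background 18.3% and 16.8%), and in mouse 6 higher and 4 lower (background 37.4% and 37.7%). The sums mix opposite changes. In rat Prg4 rose from 8.49 to 476 FPKM and Col3a1 fell from 917 to 469. In mouse Pdpn rose from 75.6 to 413 and Pdgfrb fell from 78.8 to 24.5.

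Endothelial markers summed to 3.47 to 4.38 FPKM in RC, 1.50 to 2.23 in RM, 7.70 to 9.09 in MC and 4.85 to 6.30 in MM. Most of each sum was Erg, with means of 3.81 in RC, 1.78 in RM, 7.97 in MC and 5.11 in MM. In mouse Erg and Tek were called lower, and the other markers were too low to be tested. Of those, Cdh5 went from 2 to 29 counts and Kdr from 17 to 39, while Pecam1 went from 8 to 6. Muscle markers summed to 6.56 to 7.45 in RC, 3.98 to 4.53 in RM, 5.67 to 6.77 in MC and 0.421 to 0.888 in MM. Adipocyte markers summed to 4.54 to 6.55 in RC, 44.3 to 69.2 in RM, 21.97 to 25.4 in MC and 8.19 to 8.77 in MM. The rat sum was almost all Fabp4, the 1 of 6 markers called, while Adipoq went from 15 to 6 counts, Plin1 from 20 to 6 and Cfd from 6 to 2. In mouse Adipoq, Plin1 and Cfd were called lower, as were 37.7% of all genes tested. Erythroid markers did not exceed 0.0492 in rat and 0.425 in mouse. The part that any of these cell types played in the changes of the acute phase genes was not tested.

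The genes whose pattern over the 12 libraries lay nearest to each acute phase gene were found among the 10912 genes tested in both species, by Euclidean distance of log2(CPM + 1) values (CPM, counts scaled to library size) centred on the control mean of each species. The nearest to Lcn2 were Cxcl1, a neutrophil-attracting chemokine (distance 3.36), and Mmp3, stromelysin (4.55). The nearest to Hp were Smtnl2 (0.677) and Atp7b (0.756), the nearest to Cp were Ereg (0.791) and Ier3 (0.997), and the nearest to A2m were Gpm6b (0.505) and Traf3ip2 (0.529). Ptx3 had the closest neighbours, Ccng2 at 0.192 and Arhgef4 at 0.291, both with a negative rat and a positive mouse log2 fold change (−0.47 and 2.00 for Ccng2). The nearest gene to Lcn2 was farther away than that of any other of the 5. These distances are not scaled to the size of the change, and Lcn2 changed most of the 5 in both species. A near gene need not have the same change. Smtnl2 and Atp7b had mouse log2 fold changes of 9.26 and 7.46, against 5.71 for Hp.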

How the data were processed

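Bulk RNA-seq of 12 chondrocyte libraries was analysed from 1 table per species, which hold raw counts per gene and FPKM values. Per the submitters' processing notes, the authors used HISAT2 and HTSeq 0.11.2 with the builds GRCm38 and Rnor_6.0, and they deposited whole-number counts, which were tested here as deposited. The FPKM values were also made by the authors, and implied mouse gene lengths equalled GENCODE M21 exonic lengths within 1 base for 96.7% of 16304 genes. The annotation release, read length and strand setting were not stated in the sources used here. The authors' fold changes and P values were not used.

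Samples were grouped by title. Genes were filtered with filterByExpr, scaled by TMM and tested per species with edgeR 4.0.16 (quasi-likelihood F test, R 4.3.3), two-sided, with Benjamini-Hochberg adjustment over all genes tested and a threshold of 0.05. The SE is the absolute log2 fold change divided by the square root of F. In mouse it was smaller than the SE of DESeq2 for Saa3 (0.0580 against 0.546) and Lcn2 (0.0447 against 0.111). It is thus no measure of counting error where control counts are few. The species difference was a contrast of the 4 group means over genes matched by symbol, with factors set within species. It used 1 dispersion per gene for both species. Alternatives were DESeq2 1.42.0, limma 3.58.1 on log2(FPKM + 1) and log2(FPKM + 0.1), library size alone, RLE factors, no filter, a replicate block, the study's criteria and leaving out each library. The scripts were tested on simulated data. Pairs of replicates differed by more than sampling noise (chi-square per degree of freedom of at least 1.90), so no pair was taken for a repeat of 1 library. This does not show that replicates are independent cultures, which rests on the study's account.

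Every member is named. From each pathway list and species, the 4 genes with the largest absolute log2 fold change among those called, and with a group mean of 1 FPKM or more, are named, beside others picked after their values were seen (Saa4, marker genes and genes that passed the filter through 1 group). The members and lists were chosen with earlier results of these data known. Counts of 0 allow up to 3 reads. Motifs were searched in RefSeq promoters of GRCr8, a different build from that of the rat counts.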

Additional observations from a re-analysis of the deposited data

Results flagged for a closer look

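For 5 genes the test of the difference itself found that the response to IL-1β differed between rat and mouse chondrocytes (edgeR quasi-likelihood test, adjusted over 10912 genes, of which 63.8% differed). The mouse log2 fold change minus the rat one was 5.29 for Hp, 4.32 for Cp, 3.09 for Lcn2, 2.50 for Ptx3 and 1.60 for A2m. Ptx3 is the gene of these whose direction differed, with −0.49 in rat and 2.01 in mouse. Groups of 3 libraries were not tested for single outlying libraries.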

How the results depend on the processing

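Each called member kept its call and direction under every alternative run, except that Ptx3 in rat was not called by the study's criteria. Rat A2m, not called under any, ranged from −0.28 to 0.25, and without the filter mouse Orm1 was also called (10 members in mouse and 6 for the difference). The numbers of members called stayed at 4 in rat, 9 in mouse and 5 for the difference when any 1 library was left out. The study's criteria, read here as an unadjusted P, a log2 change of 0.85 and an FPKM of 1, gave 1136 genes in rat (617 higher, 519 lower) against 4667, and 3781 in mouse (1862 higher, 1919 lower) against 11085. Leaving out each library gave 3303 to 6251 genes in rat (6251 without the first RC library, fewer than 4667 without any other), 10824 to 10937 in mouse and 6591 to 7544 for the difference. As a share of summed FPKM in place of counts, the members took 0.238% in RM, 0.0410% in MC and 3.58% in MM. Leaving a library out of a group mean for these shares was chosen after seeing the data, as were the alternatives for the pathway lists. It moved no share by more than its SD. With 3 libraries in a group no other outcome was possible, so this does not test the shares. Library size alone gave 3697 genes higher and 8077 lower in mouse, and 2189 and 5398 for the difference (3429 and 3530 with TMM). On log2(FPKM + 1), which understates changes of low genes, the log2 fold change was 4.53 for rat Orm1, 1.71 for Saa1, 1.20 for Saa2 and 12.64 for Saa3.

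The replicate block gave 4534 genes in rat, 11047 in mouse and 6808 for the difference, with 4, 9 and 5 members called. Same-numbered libraries deviated together with r of 0.02, −0.10 and 0.08 in rat and 0.0012, 0.015 and 0.0048 in mouse. Different-numbered rat libraries gave r from −0.19 to 0.16. No pairing by number was seen, but 3 such values per species cannot exclude it. Depth limits Saa1, Saa2, Saa3 and Orm1 most, whose control groups hold 1 to 7 counts.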
